A study of Mus musculus with 20 samples.

Results

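Birc5, Cdk1, Ccnd3, Myc, Cdkn1a and Trp53 are the 6 proliferation and cell cycle genes measured here in mouse mammary tumours. They were chosen by name from a list of 7, of which Pbk was not among the rows, and they make up 6 of the 770 genes of the panel. Their signals were read in 20 MMC tumours, 5 in each of 4 treatment groups, to ask how they stood 1 day after treatment with an antibody that binds the tumour cells, with or without an immune-stimulating payload. MMC cells, a mammary carcinoma line established from tumours of neu-transgenic mice, were implanted subcutaneously in hosts aged 6 to 8 weeks of the FVB/N-TgN(MMTV-Erbb2)NK1Mul/J background, so every mouse also carried an Erbb2 transgene driven by the MMTV promoter. Mice were allocated by tumour size once tumours measured 200 to 500 mm3 and received 5 mg/kg intraperitoneally of an isotype control antibody, of the same kind of control carrying T785 (isotype ISAC), of anti-rHER2 (an antibody against rat HER2), or of anti-rHER2 carrying T785 (anti-rHER2 ISAC). T785 activates TLR7 and TLR8, which sense RNA in endosomes, and ISAC stands for immune-stimulating antibody conjugate. No group was left untreated, and the labels give 1 tumour line, 1 dose and 1 time.

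Progress through the cell cycle is driven by cyclins bound to cyclin-dependent kinases. D-type cyclins, whose genes respond to growth factors and to Myc-driven transcription, carry cells out of G1, and Cdk1 carries them into mitosis. Survivin, the product of Birc5, is made mainly in G2 and M, where it sits in the chromosomal passenger complex that corrects attachments of chromosomes to the spindle. The transcription factor p53, the product of Trp53, halts the cycle after DNA damage, in large part by switching on Cdkn1a, whose product p21 inhibits cyclin-dependent kinases. In tumours driven by HER2, signals from the receptor feed into this machinery through the MAPK and PI3K pathways.

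Promoter sequences in RefSeq (GRCm38.p6, 250 bases before to 50 bases after an annotated start) were matched by symbol for 5 of the 7 named genes, in 7 windows. The windows of Cdk1, Birc5 and Cdkn1a are shown because these genes stand for entry into mitosis, for the gene with the largest fold changes among the called members, and for the p53-responsive brake. Capitals mark matches, on either strand, to the cell cycle homology element TTTGAA (CHR), the CCAAT box CCAAT and the p53 half-site, and the E-box CACGTG and the E2F core GCGGGAA were searched as well. The p53 half-site was added to the motifs after the sequences had been seen.
Cdk1 (chr10:69352863-69353162, minus strand): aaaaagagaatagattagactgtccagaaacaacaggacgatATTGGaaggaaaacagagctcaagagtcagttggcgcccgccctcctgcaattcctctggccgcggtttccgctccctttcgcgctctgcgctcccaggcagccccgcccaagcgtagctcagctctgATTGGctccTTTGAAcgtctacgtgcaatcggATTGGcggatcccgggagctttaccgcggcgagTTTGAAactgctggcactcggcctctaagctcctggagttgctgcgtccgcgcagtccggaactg
Birc5 (chr11:117848987-117849286, plus strand): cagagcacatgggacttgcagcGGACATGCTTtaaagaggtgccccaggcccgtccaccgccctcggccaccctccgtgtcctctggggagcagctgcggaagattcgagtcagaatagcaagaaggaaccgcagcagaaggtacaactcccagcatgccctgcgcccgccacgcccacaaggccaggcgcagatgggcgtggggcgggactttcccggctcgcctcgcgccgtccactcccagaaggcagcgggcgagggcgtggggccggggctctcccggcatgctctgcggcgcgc
Cdkn1a (chr17:29090729-29091028, plus strand, the first of 2 annotated windows): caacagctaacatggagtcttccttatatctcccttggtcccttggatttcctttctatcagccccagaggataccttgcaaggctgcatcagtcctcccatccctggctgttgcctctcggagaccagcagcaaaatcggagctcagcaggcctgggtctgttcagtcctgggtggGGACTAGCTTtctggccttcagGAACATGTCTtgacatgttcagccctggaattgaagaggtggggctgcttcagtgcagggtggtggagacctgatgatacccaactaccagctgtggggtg
The Cdk1 window held 2 CHR matches, at -71 and -15 relative to the annotated start, and 3 CCAAT matches, at -208, -80 and -48. CHR was found in 17.9% and CCAAT in 37.4% of the 32851 promoters of the table. The Cdkn1a window shown held 2 p53 half-sites, at -73 and -51, and the Birc5 window held 1, at -228, beside 8.36% of all promoters with at least 1. The Trp53 window, not shown, also held 1, at -75, and the second Cdkn1a window held 0. None of the 7 windows held an E2F core (4.6% of all promoters), and the E-box (7.15%) was found in the Trp53 window alone. No pair of these motifs overlapped in the windows shown, and a match describes letters only.

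The values are nCounter probe counts multiplied by 1 factor per tumour, printed here as normalized signal on a linear scale. Recovered totals were 271793 to 508433 counts per tumour. The epithelial markers Epcam and Cdh1, 2 of 2 measured markers of the tumour cells, were far above the floor in every tumour, at 4390 to 7192 and 1013 to 1362. Differences below are in log2(signal + 1) with their standard error, from a limma fit over all 20 tumours with p-values adjusted over 770 genes, and "called" means an adjusted p below 0.05. The comparisons share groups, so their results are not independent of each other. The panel as a whole was not level: setting the anti-rHER2 ISAC tumours against those given the isotype antibody, its median log2 difference was 0.36. It was 0.29 with the isotype ISAC as the reference and 0.16 with anti-rHER2, and anti-rHER2 itself stood 0.20 above the isotype antibody. In that first comparison 307 genes were higher and 36 lower as deposited, but equal medians gave 92 and 277, quantile normalization 130 and 182, median-ratio scaling 155 and 143 and edgeR's TMM scaling 175 and 132. These 4 are referred to as the whole-panel scalings, and under them the panel's median was -0.30, -0.095, -0.021 and 0.037 in that order, so equal medians left the panel about as far below 0 as it stood above 0 as deposited. Scaling tumours to equal means of Epcam and Cdh1 instead gave 309 higher and 26 lower, with a median of 0.42. EdgeR with the deposited scaling gave 313 and 37.

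In the anti-rHER2 ISAC tumours Birc5 and Myc were lower and Ccnd3 was higher than in the isotype antibody tumours, while Cdk1, Cdkn1a and Trp53 did not pass the test. Thus 2 of 6 members were called lower and 1 higher, beside 4.68% of the panel called lower, 39.9% called higher and 44.5% called in either direction. The members' median log2 difference was -0.37. With the isotype ISAC as the reference, 1 of 6 members, Birc5, was called lower, beside 3.9% of the panel called lower and 39.9% called in either direction, and the members' median was -0.34. Against anti-rHER2, which differs from the ISAC by the payload, 0 of 6 were called by limma (0 at an unadjusted p below 0.05), beside 22.6% of the panel. Across this comparison the members' median was -0.13. Anti-rHER2 against the isotype antibody gave 0 of 6 calls (1 at an unadjusted p below 0.05, Birc5), beside 9.09%. Anti-rHER2 against the isotype ISAC gave 1 of 6, Birc5, called lower, beside 0.649% of the panel called lower and 5.71% in either direction. The isotype ISAC against the isotype antibody gave 0 of 6 by limma (1 at an unadjusted p below 0.05), beside 0.0% of the panel, where 47 of 770 genes stood at an unadjusted p below 0.05 and edgeR likewise called 0 members and 0 genes. The interaction of target and T785, which asks whether the payload's difference is the same on both antibodies, gave 0 of 6 (1 at an unadjusted p below 0.05), beside 7.14%.

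**Figure D1:**
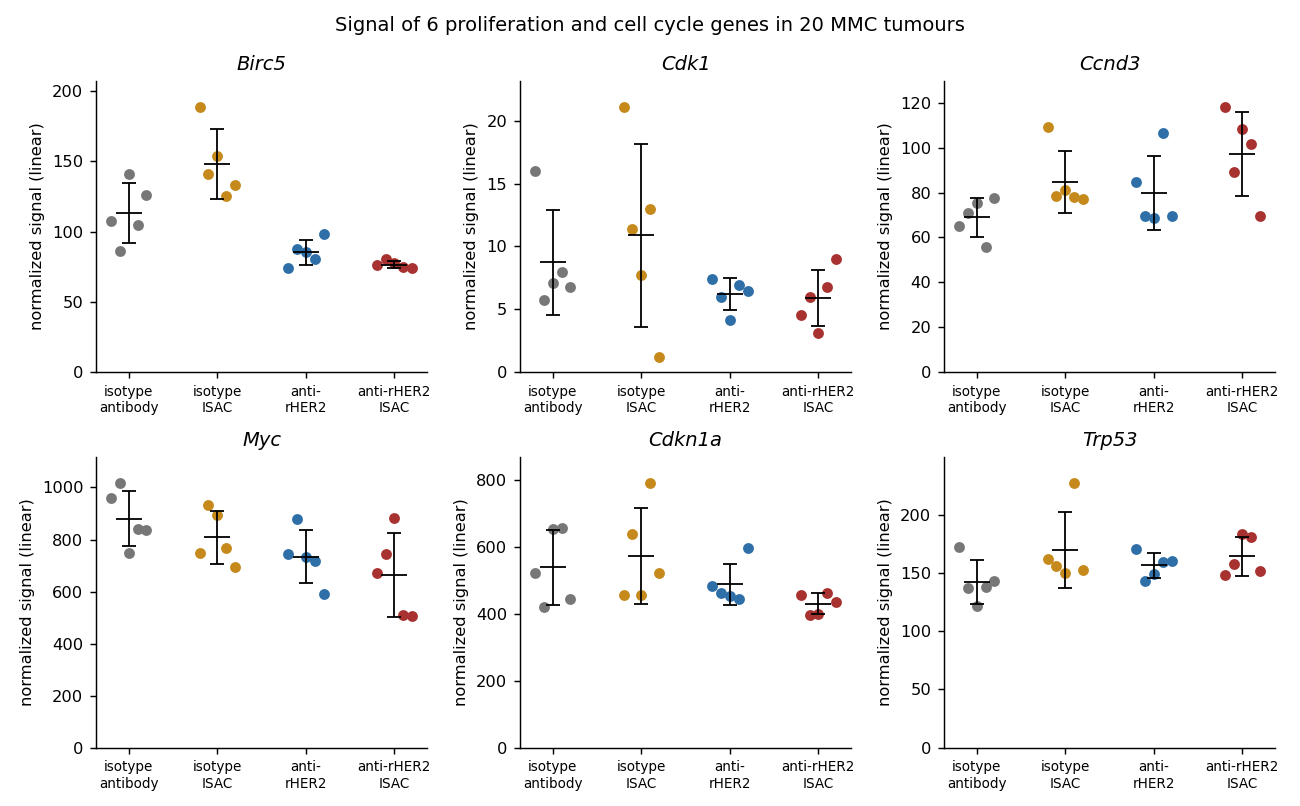
Normalized signal (linear axis from 0) of each of the 6 genes in every tumour, by treatment group. Points are tumours (5 per group), the long tick is the group mean and the bars are ± 1 SD. All 5 anti-rHER2 ISAC tumours lie below all 5 isotype antibody tumours for Birc5 and for none of the other 5 genes.

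Birc5 (chromosome 11, 117849237 to 117855743) showed the clearest separation. Its signal in the isotype antibody tumours was 107, 86.2, 141, 105 and 126, and in the isotype ISAC tumours 188, 141, 154, 125 and 133. In the anti-rHER2 tumours it was 74.4, 87.4, 85.8, 80.9 and 98.1, and in the anti-rHER2 ISAC tumours 75.9, 80.5, 77.4, 74.6 and 74.0. Every anti-rHER2 ISAC tumour was below every tumour of both isotype groups, every anti-rHER2 tumour was below every isotype ISAC tumour, and the remaining pairs of groups overlapped. Groups that do not overlap, in either direction, made up 31.6% of the panel for the ISAC against the isotype antibody, 26.8% against the isotype ISAC and 6.88% for anti-rHER2 against the isotype ISAC.

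From high to low, the Birc5 means were 148 ± 24.8 (SD, n = 5) with the isotype ISAC, 113 ± 21.2 with the isotype antibody, 85.3 ± 8.75 with anti-rHER2 and 76.5 ± 2.60 with the anti-rHER2 ISAC. No neighbours in this order differed past the threshold: the steps had adjusted p-values of 0.718, 0.0611 and 0.462 in limma. The differences across the order did pass. The anti-rHER2 ISAC was lower than the isotype antibody by a log2 difference of -0.54 ± 0.13 (limma adjusted p = 0.00206) and lower than the isotype ISAC by -0.93 ± 0.13 (adjusted p = 1.3e-05), the latter a 1.91-fold difference. Anti-rHER2 without payload was lower than the isotype ISAC by -0.78 ± 0.13 (adjusted p = 0.0020). Against the isotype antibody it differed by -0.39 ± 0.13, with an interval of -0.66 to -0.12 before adjustment over the panel. Relative to the panel's median, the 3 called Birc5 differences were -0.90, -1.22 and -0.96.

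All 3 Birc5 calls held in 11 of 11 alternative settings, among them every scaling named above, and with each of the 20 tumours left out in turn. For anti-rHER2 against the isotype antibody, the adjusted p of 0.0611 passed under 5 of 11 alternatives, with a log2 difference of up to -0.67 with equal medians, and when isotype antibody replicate 2 (adjusted p = 0.0374) or isotype ISAC replicate 1 (adjusted p = 0.0481) was left out. The payload's difference for Birc5 was -0.15 ± 0.13 on anti-rHER2 and 0.39 ± 0.13 on the isotype antibody, and neither was called. Their difference, the interaction, was -0.54 ± 0.18 (limma adjusted p = 0.0881), and it passed without isotype antibody replicate 3 (adjusted p = 0.0338). Scaling decided this value too, since it passed with equal medians, median-ratio scaling, quantile normalization and edgeR with TMM scaling.

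The spread of Birc5 also differed between groups, with coefficients of variation of 18.7% and 16.7% in the isotype antibody and isotype ISAC tumours, 10.3% with anti-rHER2 and 3.39% with the anti-rHER2 ISAC. This last SD of 2.60 lies below the counting SD of 8.54 that 66 to 94 counts per tumour give, so it is no measure of the precision of 1 tumour. Limma's standard error pools the spread of all 4 groups.

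Cdk1 (chromosome 10, 69335146 to 69352912), the kinase of mitotic entry, was close to the floor. Its signal was 16.0, 5.75, 7.07, 7.98 and 6.80 with the isotype antibody and 21.1, 11.3, 7.69, 13.0 and 1.22 with the isotype ISAC. It was 7.44, 5.96, 4.13, 6.90 and 6.45 with anti-rHER2 and 4.57, 5.99, 3.10, 6.79 and 8.96 with the anti-rHER2 ISAC. The higher values belonged to the isotype groups, but a single isotype ISAC tumour was the lowest of all 20, and every pair of groups overlapped. These signals rest on 1 to 22 recovered counts. The lowest, 1.22 in isotype ISAC replicate 5, is the signal of 1 count in that tumour. As 0 of its values stood at the floor of 1, whether this was a count of 0 or 1 cannot be told. The counting SD was above the SD between tumours with anti-rHER2 (2.5 against 1.27) and the anti-rHER2 ISAC (2.38 against 2.22), and below it with the isotype antibody (3.04 against 4.15) and the isotype ISAC (3.36 against 7.28). The ISAC against the isotype antibody gave -0.48 ± 0.44 (limma adjusted p = 0.406), with an interval of -1.40 to 0.44 that holds both 0 and the difference seen for Birc5. Against the isotype ISAC the difference was -0.51 ± 0.44, and without isotype ISAC replicate 5, the lowest tumour, it was -1.03 (adjusted p = 0.0107). It was also called lower there with equal medians (-1.12, adjusted p = 0.0489) and by edgeR with TMM scaling (-1.25, adjusted p = 0.0192). It was not called with the other scalings in limma, whose adjusted p-values were 0.153 or more. EdgeR with the deposited scaling gave -0.90 (adjusted p = 0.0960).

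**Figure D2:**
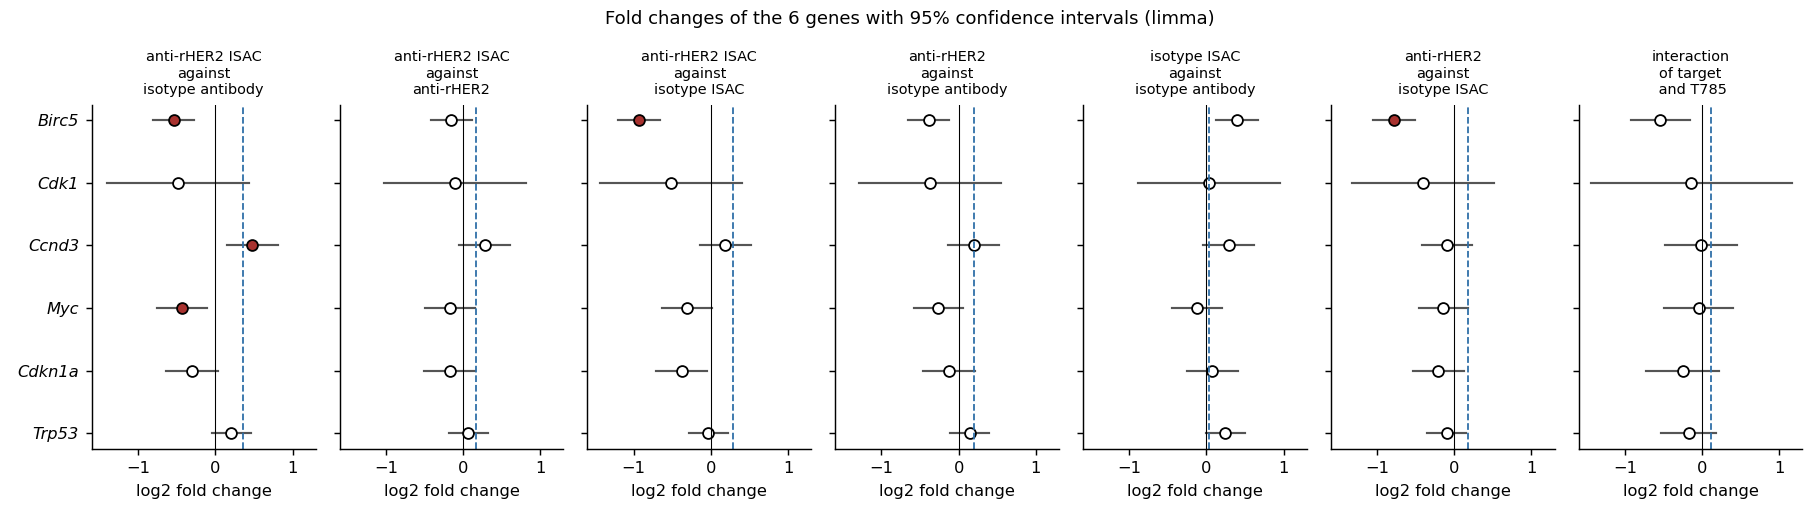
Log2 fold change (x axis) of each gene (rows) in the 7 comparisons (panels), with 95% confidence intervals from limma before adjustment. Filled points are called, and the dashed line is the median of the 770 genes in that comparison. Birc5 is filled in 3 panels, and Ccnd3 and Myc in the first panel alone.

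Ccnd3 (chromosome 17, 47505051 to 47599689), which encodes cyclin D3, was the member called higher. Its signal was 64.9, 70.9, 75.4, 55.8 and 77.7 with the isotype antibody and 109, 78.3, 81.2, 78.0 and 77.1 with the isotype ISAC. It was 84.7, 69.5, 68.5, 107 and 69.7 with anti-rHER2 and 118, 89.0, 108, 102 and 69.5 with the anti-rHER2 ISAC. In the anti-rHER2 ISAC group 4 of 5 tumours exceeded every isotype antibody tumour, and the groups overlapped through the remaining one. From high to low the means were 97.3 ± 18.8 with the anti-rHER2 ISAC, 84.7 ± 13.7 with the isotype ISAC, 79.8 ± 16.4 with anti-rHER2 and 68.9 ± 8.80 with the isotype antibody, and only the ends of this order differed past the threshold. That difference was 0.48 ± 0.16 (limma adjusted p = 0.0183), which is 0.12 above the median of the panel.

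The Ccnd3 call was open to both the scaling and single tumours. It was lost with median-ratio scaling (0.08) and edgeR with TMM scaling (0.13), and its sign turned with quantile normalization (-0.20) and equal medians (-0.24), none of them called. Leaving out isotype antibody replicate 4 gave an adjusted p of 0.0568, and leaving out anti-rHER2 ISAC replicate 1 gave 0.0573. Against the isotype ISAC the difference was 0.19 ± 0.16 (adjusted p = 0.375) as deposited, yet Ccnd3 was called lower there with quantile normalization (-0.48) and equal medians (-0.53). The payload's difference was 0.28 ± 0.16 on anti-rHER2 and 0.29 ± 0.16 on the isotype antibody, and their interaction was -0.01, with an interval of -0.47 to 0.46.

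Myc (chromosome 15, 61985341 to 61990361) encodes a transcription factor that drives growth and G1 progression. Its signal was 959, 1016, 748, 840.2 and 837 with the isotype antibody and 750.1, 934, 894, 766 and 696 with the isotype ISAC. It was 746, 879, 733, 719 and 592 with anti-rHER2 and 673, 743, 883, 509 and 508 with the anti-rHER2 ISAC. In the anti-rHER2 ISAC group 4 of 5 tumours lay below every isotype antibody tumour, with a wide spread in which tumours 4 and 5 lay at the bottom and tumour 3 stood within the isotype antibody range.
The Myc means stood in the order isotype antibody (880.1 ± 107), isotype ISAC (808 ± 101), anti-rHER2 (734 ± 102) and anti-rHER2 ISAC (663 ± 160.4). Only the first and last differed past the threshold, by -0.43 ± 0.15 (limma adjusted p = 0.0268), which is -0.79 relative to the panel's median. No neighbours in this order were called different. The payload's difference was -0.17 ± 0.15 on anti-rHER2 and -0.12 ± 0.15 on the isotype antibody. Compared with the isotype ISAC, the anti-rHER2 ISAC stood at -0.31 ± 0.15 (adjusted p = 0.118), and it was called lower there with equal medians, median-ratio scaling, quantile normalization and edgeR with TMM scaling.

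Single tumours decided the Myc call as deposited. It ended when isotype antibody replicate 1 (adjusted p = 0.0585) or 2 (0.0706), or anti-rHER2 ISAC replicate 4 (0.0832) or 5 (0.0843), was left out, and it was made without any of the other 16. It also ended when only the compared groups were fitted (adjusted p = 0.0673) and when tumours were scaled to equal means of the epithelial markers (-0.37, adjusted p = 0.117). Without anti-rHER2 ISAC replicate 3, the difference from the isotype ISAC was -0.42 (adjusted p = 0.0304).

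Cdkn1a (chromosome 17, 29090979 to 29100722), the p21 gene, was 523, 421, 653, 658 and 445 with the isotype antibody and 455, 639, 457, 791 and 521 with the isotype ISAC. It was 485, 463, 453, 444 and 596 with anti-rHER2 and 458, 396, 400.3, 464 and 436 with the anti-rHER2 ISAC. High values were scattered over single tumours of the first 3 groups, and the anti-rHER2 ISAC tumours lay together at the low end, with 2 of 5 below the lowest of the other 3 groups and the rest within their range. The means were 573 ± 143 with the isotype ISAC, 539.8 ± 112 with the isotype antibody, 488 ± 62.4 with anti-rHER2 and 431 ± 31.5 with the anti-rHER2 ISAC, and no pair of groups differed past the threshold. The anti-rHER2 ISAC stood at -0.30 ± 0.16 against the isotype antibody (limma adjusted p = 0.138) and at -0.38 ± 0.16 against the isotype ISAC (adjusted p = 0.0653).

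These Cdkn1a values sat near the threshold. Against the isotype antibody Cdkn1a was called lower with the 4 whole-panel scalings, at -0.68 by edgeR with TMM scaling to -1.03 with equal medians, where the panel's own median was -0.30, and it lies -0.66 from the panel's median as deposited. Compared with the isotype ISAC it was called lower in 7 of 11 alternatives, and also without isotype ISAC replicate 1 (adjusted p = 0.0393) or 3 (adjusted p = 0.0366).

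Trp53 (chromosome 11, 69580348 to 69591873) was 172, 137, 121, 138 and 143 with the isotype antibody and 162, 156, 149.6, 227 and 153 with the isotype ISAC. It was 170.2, 143, 149, 159.8 and 160.1 with anti-rHER2 and 148, 158, 184, 181 and 151 with the anti-rHER2 ISAC. A single isotype ISAC tumour was the highest of the 20, and every pair of groups overlapped. The order of the means was isotype ISAC (169 ± 32.5), anti-rHER2 ISAC (164 ± 16.7), anti-rHER2 (156 ± 10.5) and isotype antibody (142 ± 18.5), with no called difference. Against the isotype antibody, the anti-rHER2 ISAC stood at 0.21 ± 0.12 (limma adjusted p = 0.177), with an interval of -0.04 to 0.46. The sign of that difference depended on the scaling, since it was -0.20 with median-ratio scaling, -0.15 by edgeR with TMM scaling, -0.33 with quantile normalization and -0.51 with equal medians, the last of these called lower (adjusted p = 0.00603). Relative to the isotype ISAC, Trp53 was at -0.03 ± 0.12 as deposited and was called lower with those same 4 scalings.

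**Figure D3:**
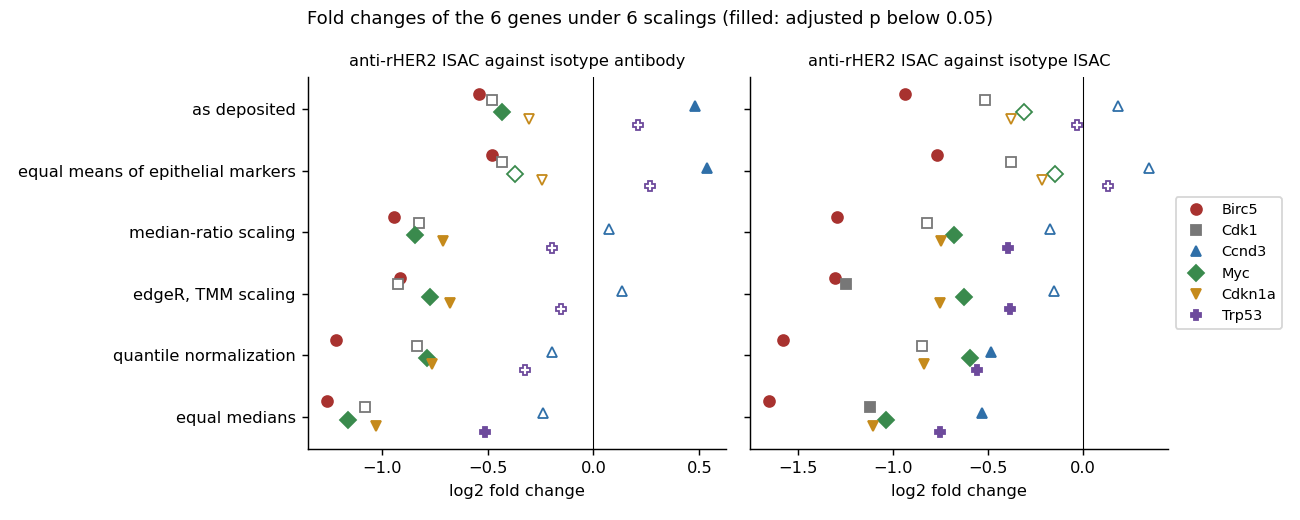
Log2 fold change (x axis) of the 6 genes in the anti-rHER2 ISAC tumours against the isotype antibody (left) and the isotype ISAC (right), under 6 scalings of the tumours (rows). Filled symbols have an adjusted p below 0.05. Birc5 is filled and below 0 in all 12 positions, whereas Ccnd3 and Trp53 lie on both sides of 0.

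Within groups no pair of the 6 genes passed a test of correlation. After subtracting each group's mean, 15 pairs were compared over the 20 tumours with 100000 shuffles of tumours within groups. The largest Pearson correlation was that of Myc with Cdkn1a (Pearson r = -0.36, permutation p = 0.0688, adjusted p = 0.739; Spearman rho = -0.36, permutation p = 0.119, adjusted p = 0.847), and r was -0.39 without the 2 tumours farthest from the median of Myc. By rank the largest was that of Ccnd3 with Cdkn1a (Spearman rho = -0.40, permutation p = 0.0840, adjusted p = 0.847; Pearson r = -0.33, permutation p = 0.144, adjusted p = 0.739), with r = -0.18 without the 2 tumours farthest from the median of Ccnd3. Birc5 and Cdk1, both of G2 and M phase, had r = 0.21 and rho = -0.04 (permutation p = 0.488 and 0.876, adjusted 0.880 and 0.938), and r = 0.05 without the 2 tumours farthest from the median of Birc5. This test could hardly detect a link between them. With anti-rHER2 and the anti-rHER2 ISAC the counting SD exceeded the SD between tumours for both genes (for Birc5, 9.31 against 8.75 and 8.54 against 2.60). In the isotype groups it was below that SD for both.

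Likeness to the rest of the panel was described by the same group-centred Pearson r over 20 tumours, for genes with a mean signal of at least 20. The genes named come from the top of 532 or 533 compared, and the level that unrelated genes would reach was not computed. The 3 genes most like Birc5 were Ccl5 (r = 0.60), Psmb7 (0.57) and Irf5 (0.56). For Ccnd3 they were the T cell receptor component Cd3g (0.76), Nfkb1 (0.72) and the macrophage receptor gene Mrc1 (0.67), and for Myc they were Chuk (0.66), Traf3 (0.63) and Smn1 (0.56). Cdkn1a was closest to the purine salvage gene Hprt (0.97) and the lysosomal membrane gene Lamp1 (0.93). Trp53 was closest to S100b (0.80), Mapkapk2 (0.67) and Tnfrsf1a (0.66), and Cdk1, near the floor, to Mavs (0.58), Erbb2 (0.52) and Sigirr (0.46). The tumours share a scaling factor for all of their genes, and Hprt is among the genes on which the deposited signals are level, so these values describe the tumours only.

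The panel held 0 of 31 other cell cycle and mitosis genes on a list that included Mki67, Top2a, Ccnb1 and Plk1, so the 6 genes are its cell cycle content by that list. Of 20 genes of the p53 pathway and DNA damage, 6 were measured. In the anti-rHER2 ISAC tumours against the isotype antibody 2 of these 6 were called higher and 0 lower, beside the 39.9% and 4.68% above, with a median log2 difference of 0.17 that turned to between -0.18 (TMM) and -0.55 (equal medians) under the 4 whole-panel scalings. Fas, a death receptor gene, rose from 19.8 ± 7.92 to 34.2 ± 5.79 (0.83 ± 0.22, limma adjusted p = 0.00481), and its sign was the same under all 5 other scalings, although it was called in 1 of them. The kinase gene Abl1 was higher by 0.22 ± 0.08 as deposited, and its sign turned under those 4 scalings.

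In the BCL-2 family and apoptosis list, 6 of 18 genes were measured. Of these 6, 2 were called higher and 1 lower as deposited, beside 39.9% and 4.68% of the panel, with a median of 0.07 that turned to between -0.32 (TMM) and -0.64 (equal medians) under the whole-panel scalings. Bid, which links caspase-8 to mitochondria, fell by 0.29 ± 0.09 and stayed called lower under 4 of 5 other scalings. The initiator caspase gene Casp8 (0.36 ± 0.10) and the survival gene Bcl2l1 (0.33 ± 0.11) were higher as deposited, and both signs turned under the 4 whole-panel scalings. Bax, a p53 target, stood at -0.14 with an adjusted p of 0.291 as deposited and was called lower under 4 of the other scalings.

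Of 13 measured growth factor signalling genes, 6 were called higher and 0 lower as deposited, near the 39.9% of the panel called higher, with a median of 0.31, against 0 higher and 7 lower with equal medians. Pik3cd and Pik3cg, which encode PI3K subunits abundant in leukocytes, were higher by 0.98 ± 0.22 and 0.66 ± 0.16, Erbb2 by 0.50 ± 0.13 and Stat3 by 0.46 ± 0.08. Of these 4, only Pik3cd kept its sign under every scaling, and it was called in 3 of 5. Of 7 measured immediate early and AP-1 genes, which respond within minutes to growth signals and stress, 3 were called higher and 0 lower as deposited, again near 39.9%, with a median of 0.46 that was -0.17 with equal medians. Fos rose from 160 ± 107 to 499 ± 199.9 (1.69 ± 0.37, limma adjusted p = 0.00101) and was called higher under all 5 other scalings. Egr1 (0.75 ± 0.24) kept its sign under all of them and was called in 1, and Jun (0.57 ± 0.13) turned with equal medians.

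**Figure D4:**
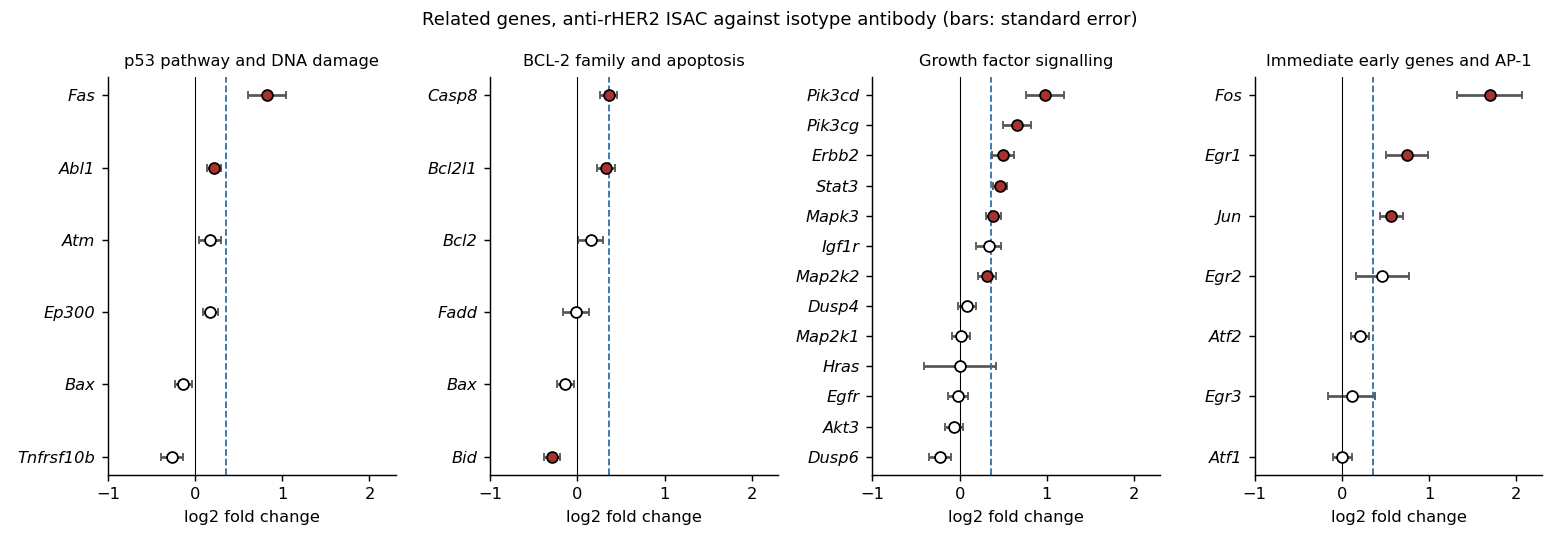
Log2 fold change ± standard error of the measured members of 4 lists of related genes, anti-rHER2 ISAC against isotype antibody. Filled points are called and the dashed line is the panel's median of 0.36. Bid is the filled point below 0, and Fos is the highest.

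Markers of other cells moved with the treatment beside these genes. In bulk tumour RNA, fewer cells of a type and less RNA per cell cannot be told apart. The summed signal of 3 measured pan-leukocyte markers ranged over 856 to 1071 for the isotype antibody, 828 to 1110 for the isotype ISAC, 1112 to 1340 for anti-rHER2 and 1652 to 2662 for the anti-rHER2 ISAC. Of these markers 3 of 3 were called higher in the first comparison, beside 39.9% of the panel. Neutrophil markers (4 of 6 called higher) summed to 50.8 to 85.1, 61.5 to 83.9, 124 to 280.1 and 784 to 2270 in the same order. Monocyte and macrophage markers (7 of 10 higher) summed to 1819 to 2614, 2246 to 2685, 3118 to 4226 and 3837 to 5853. The means of Birc5, Cdk1, Myc and Cdkn1a were lowest, and that of Ccnd3 highest, in the group where these sums were highest. Cdk1 and Cdkn1a were not called as deposited.

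The tumour cells' own markers stood differently. Epcam and Cdh1 summed to 6868 to 7603, 6791 to 8554, 6252 to 7678 and 5437 to 7050 in the same order, and 0 of 2 were called in any comparison as deposited. Epcam made up most of these sums, and the 2 genes did not move together. The mean of Epcam was 6213 with the isotype antibody and 5327 with the anti-rHER2 ISAC, and that of Cdh1 was 1070 and 1156. In the anti-rHER2 ISAC tumours against the isotype antibody both were called lower with equal medians (median log2 difference -0.78), median-ratio scaling (-0.47) and TMM scaling (-0.41), and neither was with quantile normalization (-0.15). The differences of all 6 members lay lower under these 4 scalings than as deposited. With tumours scaled to equal means of these 2 genes, Birc5 remained called lower in the anti-rHER2 ISAC tumours against the isotype antibody (-0.48, adjusted p = 0.0126) and against the isotype ISAC, Ccnd3 remained called higher against the isotype antibody, and Myc did not pass. T cell markers (1 of 10 called higher) summed to 125 to 213 and 187 to 307 in the isotype antibody and anti-rHER2 ISAC tumours, NK cell markers (0 of 5) to 273 to 544 and 357 to 686, and B cell markers (1 of 5) to 11.7 to 20.1 and 39.0 to 52.6, with the defining B cell gene Ms4a1 within a few counts of the floor. The B cell sums differed mainly through Cd79b, with means of 6.36 and 34.3 in these groups. The means of Ms4a1, Cd79a, Blk and Pax5 lay between 1.17 and 4.45 in both. Endothelial markers (4 of 6 higher) summed to 516 to 660 and 814 to 1033, and fibroblast markers (2 of 5 higher) to 15345 to 20780 and 17004 to 33470. These calls are as deposited, where 39.9% of the panel was called higher, and the fibroblast count is near that share. Under the whole-panel scalings 0 to 2 of 6 endothelial markers were called higher, fibroblast markers went from 1 higher and 1 lower to 0 higher and 3 lower with equal medians, and 0 T cell markers were called higher and 1 lower. Under each of them 4 of 6 neutrophil, 5 of 10 monocyte and macrophage and 2 of 3 pan-leukocyte markers were called higher. With equal medians 2 of those 10 monocyte and macrophage markers were called lower. Against anti-rHER2 as deposited, 4 of these 10 were higher and 1 lower. Of the NK cell markers 0 were called higher, and 2 were called lower with equal medians and 1 with quantile normalization. The part of these cells in the differences of the 6 genes was not tested.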

How the data were processed

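Total RNA from 20 tumours, kept in RNAlater and extracted with an RNeasy kit per the labels' protocols, was hybridized to nCounter probes, and groups were taken from the treatment label. The deposited values are a normalized signal with a floor of 1. How the authors normalized it, treated background and distributed tumours over cartridges is not stated in the labels or file headers, so batches could not be examined. In every tumour 100% of values above the floor and up to 1000 lay within 0.05 of whole multiples of 1 step (0.826 to 1.33), and 344 values stood at 1. In 15 tumours low values sufficed to find this step, and for the other 5 the wider range was needed. The geometric mean of 20 reference genes was 389.26 to 389.27 in all tumours. No columns were identical, and chi-square per degree of freedom between tumours of a group was 4.64 or more, so 20 separate samples were used.

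Limma 3.58.1 (R 4.3.3) was run on log2(signal + 1), in 1 fit over 20 tumours followed by eBayes without a trend, with Benjamini-Hochberg adjustment over 770 genes and 2-sided p-values. Counts recovered in all 20 tumours were tested with edgeR 4.0.16 (quasi-likelihood) as an alternative, and both were tested on simulated data. Other alternatives were 4 scalings, a pseudocount of 10, leaving out the lowest 25% of genes, the compared groups alone, a trended robust prior, a replicate block and leaving out each tumour. Every member is named, with up to 4 called members of each list with the largest difference, and Bax was added after its values were seen. Counts, medians and sums of lists, and genes named by likeness, omit a few genes not reported here. The members and lists were chosen with earlier results of these data known. Replicate numbers were not treated as pairs in the main fit. Over 30 pairs of the same number the mean correlation of deviations was 0.03, and 13 exceeded 0.1. Over 120 pairs of other numbers the mean was -0.008, and 37 exceeded 0.1.

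Symbols of the 7 named genes matched RefSeq (GRCm38.p6), whose coordinates are printed, and probe positions were not used. Intervals and counting SDs cover counting or sampling error only.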

Additional observations from a re-analysis of the deposited data

Results flagged for a closer look

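In 4 of 24 sets of 5 tumours (6 genes in 4 groups) the highest tumour stood apart, meaning that its gap to the next, divided by the range of the group, exceeded the Dixon value of 0.71. Chance flags about 1 set in 20. For Cdk1 with the isotype antibody, replicate 1 at 16.0 stood above the other 4 at 5.75 to 7.98, with a ratio of 0.782. For Ccnd3 with the isotype ISAC, replicate 1 at 109 stood above 77.1 to 81.2 (0.870). For Cdkn1a with anti-rHER2, replicate 5 at 596 stood above 444 to 485 (0.732). For Trp53 with the isotype ISAC, replicate 4 at 227 stood above 149.6 to 162 (0.844). No set of Birc5 or Myc was among them.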

How the results depend on the processing

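Of 1289 single-gene values recomputed, 1179 kept their sign and their side of the threshold, 42 newly passed it, 10 no longer passed and 58 changed sign. Birc5's 3 calls and their direction held in every alternative run. Scaling moved the counts most. Against the isotype antibody, the anti-rHER2 ISAC had 4 members called with equal medians, all lower, in place of 3. It had 2 with epithelial scaling or with the compared groups alone, and 2 to 3 with a tumour left out. With median-ratio scaling, quantile normalization and TMM scaling the count stayed at 3. In these, Cdkn1a was called lower and Ccnd3 was no longer called. Against anti-rHER2, the anti-rHER2 ISAC had 3 members called with equal medians and 2 with quantile normalization, in place of 0. Against the isotype ISAC it had 6 with equal medians, 5 with quantile normalization, 4 with median-ratio scaling, 5 by edgeR with TMM scaling, and 2 with the lowest 25% of genes left out, with a trended robust prior or by edgeR with the deposited scaling, in place of 1. Leaving out 1 tumour gave 1 to 2 there. Anti-rHER2 against the isotype antibody had 1 in place of 0 with equal medians, median-ratio scaling, quantile normalization, the lowest 25% left out and edgeR with TMM scaling, and 0 to 1 with a tumour left out. The interaction had 1 in place of 0 with the same 3 scalings and TMM, and 0 to 1 with a tumour left out. Panel calls, higher and lower, were 151 and 23 for the ISAC against anti-rHER2 (equal medians gave 61 and 188, median-ratio scaling 87 and 51, quantile normalization 80 and 121, TMM 115 and 53) and 277 and 30 against the isotype ISAC (79 and 301, 164 and 142, 113 and 185, 173 and 138). For anti-rHER2 they were 68 and 2 against the isotype antibody (12 and 11, 22 and 12, 14 and 8, 23 and 12; 28 and 3 with epithelial scaling) and 39 and 5 against the isotype ISAC (7 and 9, 20 and 10, 15 and 9, 20 and 13). In the interaction they were 53 and 2 (36 and 47, 46 and 11, 41 and 25, 51 and 12).

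Signs turned mostly for Ccnd3 and Trp53. For the ISAC against the isotype antibody Ccnd3 was -0.24 with equal medians and -0.20 with quantile normalization, and Trp53 was -0.51, -0.33, -0.20 with median-ratio scaling and -0.15 with TMM. Against anti-rHER2 Ccnd3 was -0.15 with equal medians and -0.12 with quantile normalization, and Trp53 was -0.37, -0.27, -0.14 with median-ratio scaling and -0.10 with TMM. Against the isotype ISAC Ccnd3 was -0.53, -0.48, -0.17 and -0.15 in that order, and Trp53 was 0.13 with epithelial scaling. For anti-rHER2 against the isotype antibody Ccnd3 was -0.088 with equal medians, -0.077 with quantile normalization and -0.0054 with median-ratio scaling, and Trp53 was -0.14, -0.054, -0.060 and -0.055 with TMM. For the isotype ISAC against the isotype antibody Cdk1 was -0.0017 with median-ratio and -0.054 with epithelial scaling, and Cdkn1a -0.028 with the latter. Epithelial scaling also gave Ccnd3 0.020 and Trp53 0.018 for anti-rHER2 against the isotype ISAC, and Ccnd3 0.14 and Myc 0.11 in the interaction. With 1 tumour left out, signs turned in values near 0, none of them called. These were Cdk1 against anti-rHER2 (-0.25 to 0.067) and Trp53 against the isotype ISAC (-0.073 to 0.078) for the anti-rHER2 ISAC, Cdk1 (-0.27 to 0.56) and Cdkn1a (-0.048 to 0.15) for the isotype ISAC against the isotype antibody, Trp53 for anti-rHER2 against the isotype ISAC (-0.14 to 0.012), and Cdk1 (-0.66 to 0.17), Ccnd3 (-0.083 to 0.11) and Myc (-0.16 to 0.043) in the interaction. The cause of these changes was not tested.

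With the replicate block the members called were 3, 0, 1, 0, 0, 1 and 0 in the 7 comparisons, as without it, and no member's call changed. Panel calls did move, for example to 309 higher and 33 lower, in place of 307 and 36, for the ISAC against the isotype antibody. Cdk1 has no value with the lowest 25% left out, and the interaction has none with the compared groups alone. Cdk1 rests on 1 to 22 recovered counts per tumour, the lowest of which may stand for 0.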
